A study of Mus musculus with 9 samples.

Results

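The imprinted growth genes followed here, 10 in all, were measured in mouse livers with and without RAS/AKT hepatocellular carcinoma (HCC). They are Igf2, H19, Dlk1, Meg3, Rian, Mirg, Peg3, Cdkn1c, Plagl1 and Grb10. Members were taken by gene symbol from the table of raw counts, which lists 55401 genes. All 10 were among the 15717 genes with enough counts to be tested. The rule works on symbols and uses no measured value, but the 10 genes were chosen with earlier results of these data known. The counts called among them are therefore not those of a blind choice.

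The table held 9 livers of female mice obtained at 6 weeks of age, 3 in each of 3 groups. The labels give the strain as C57BL/6 in one field and as FVB/N in another. Healthy livers came from wild-type mice with no treatment. In both HCC groups, plasmids that carry a myristoylated, HA-tagged AKT under the EF1α promoter and Nras-v12 under the CAGGS promoter were placed in liver cells by hydrodynamic tail vein injection, with the sleeping beauty transposase. The labels' protocol also lists an N90-β-catenin plasmid. At week 1 the untreated HCC mice received an empty AAV8 virus, and the miR-22-treated HCC mice received AAV8 that expresses the microRNA miR-22. Livers of the HCC mice were taken at week 5, which is 4 weeks after the virus. No harvest week is given for the healthy livers. The healthy mice received neither plasmids nor virus, and their age at harvest may differ. In a comparison of HCC with healthy liver, oncogenes, injection, virus and any age difference thus cannot be told apart. Nothing in the labels says whether mice were pooled, and the p-values measure the spread between these livers only.

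An imprinted gene is transcribed mainly from one parental copy, and which copy is silent is set by DNA methylation at imprinting control regions. Many imprinted genes are abundant in fetal liver and placenta and are shut down in the weeks after birth. Paternally expressed genes such as Igf2, Dlk1, Peg3 and Plagl1 and maternally expressed genes such as H19, Meg3, Rian, Mirg, Cdkn1c and, in most tissues, Grb10 often lie side by side in clusters. Igf2 and H19 share enhancers, and Dlk1 and Meg3 share an imprinted domain that ends at Dio3. Return of Igf2, H19 and Dlk1 transcripts is well known in liver tumors of humans and rodents.

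Healthy livers had 18258660 to 20964551 counts each. The totals of the untreated HCC livers lay between 18293676 and 23908392, and those after miR-22 between 16664659 and 20459853. The 10 genes together took 0.00682 to 0.0117% of the counts of a healthy liver. Their share was 0.0978 to 0.128% in untreated HCC and 0.0580 to 0.0865% after miR-22. Levels are given as CPM, counts per 1000000 counts of the library after scaling with TMM factors. Adjusted p-values are those of edgeR's quasi-likelihood test after Benjamini-Hochberg adjustment over all tested genes, and a gene was called when that p was under 0.05 and the change exceeded 1.5-fold. For a gene with at most 3 counts in every healthy liver, the fold against healthy liver is given as a lower bound, with each healthy liver set to 3 counts (a mean of 0.181 CPM). In whole liver, fewer cells of a type and less RNA per cell cannot be told apart.

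Untreated HCC was compared with healthy liver to ask how the tumor-bearing liver differs. Of the 10 genes, 8 were higher in untreated HCC and 0 lower, where 22.7% of all tested genes were called higher and 18.1% lower. The 8 were Igf2, H19, Dlk1, Meg3, Rian, Mirg, Plagl1 and Grb10, and the other two, Peg3 and Cdkn1c, did not pass the test. Igf2, Dlk1 and Mirg had at most 1 count in a healthy liver and passed the filter on low counts only through the HCC livers, so for these 3 the direction was set by being testable. Of the 3575 genes called higher over the whole table, 1230 likewise would not have passed on the healthy livers alone, since they fell below the level of the filter (10 counts at the median library size) in at least 1 healthy liver. None of the 10 was lower at an unadjusted p under 0.05 either, and DESeq2's Wald test also called 8 higher and 0 lower. The median log2 fold change of the 10 was 6.76 as fitted, or 4.41 with Igf2, Dlk1 and Mirg at their lower bounds, beside 0.01 for all tested genes.

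**Figure D1:**
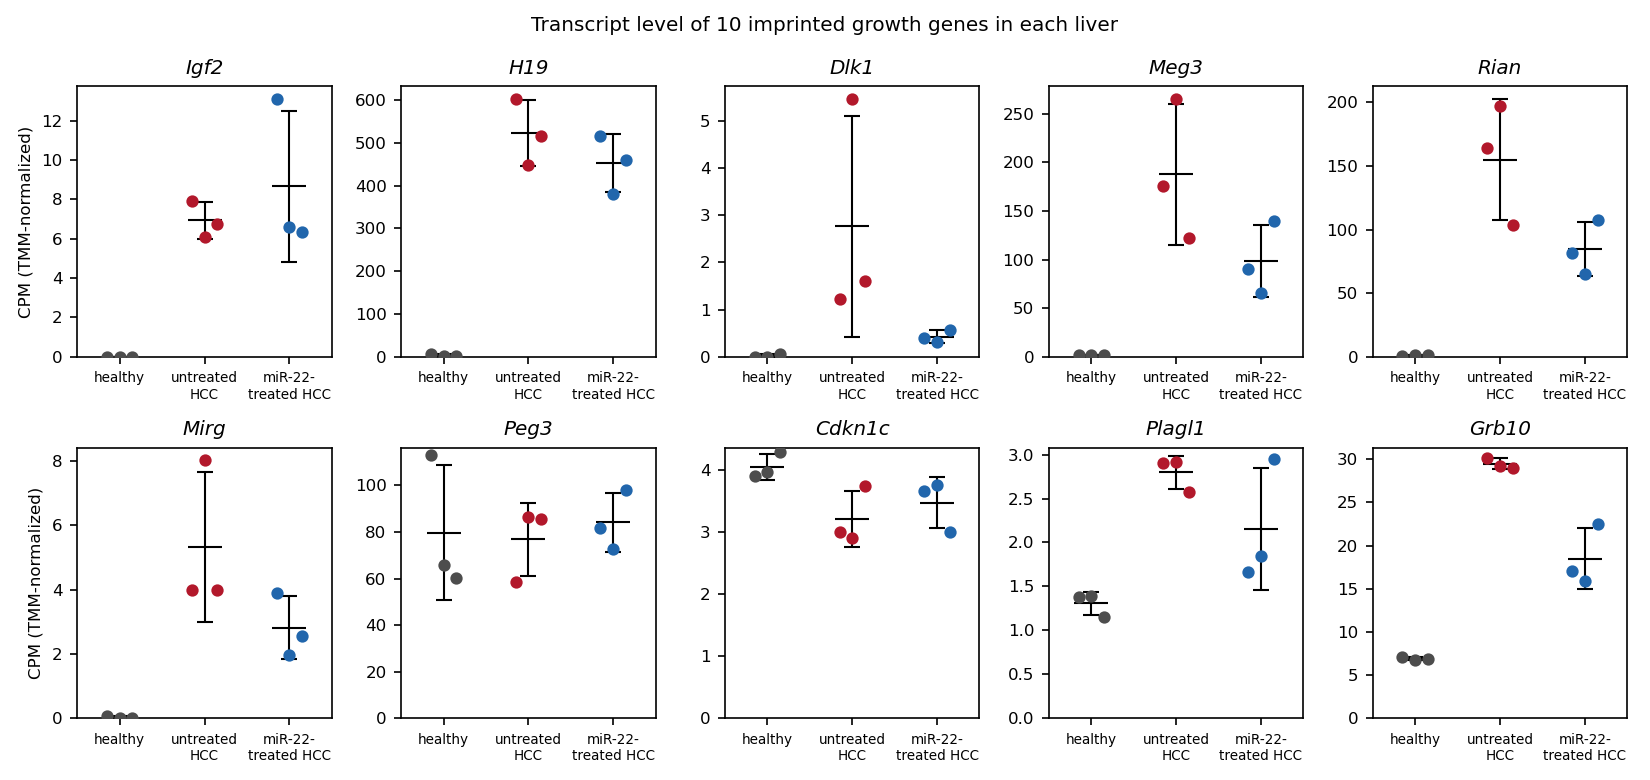
Transcript level of the 10 genes in each of the 9 livers, in CPM with TMM factors on a linear axis that starts at 0 in each panel; points are livers and the black marks give the mean ± SD of 3. Igf2, H19, Dlk1, Meg3, Rian and Mirg are near 0 in healthy livers and higher in every HCC liver, while the 3 groups of Peg3 overlap.

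Igf2 (chr7:142204503-142220694, minus strand, GRCm39) encodes insulin-like growth factor 2, a fetal growth factor that signals through the IGF1 and insulin receptors. It had 0 counts in all 3 healthy livers. Untreated HCC livers had 169, 136 and 181 counts, or 7.92, 6.09 and 6.76 CPM. The groups did not overlap, and Igf2 was at least 38.3-fold higher in untreated HCC (edgeR adjusted p = 1.6e-06). Its exons overlap those of Gm49394 on the same strand and of Igf2os on the opposite strand, which had at most 4 and 7 counts in any liver, and the library kit did not mark strand.

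H19 (chr7:142129262-142133957, minus strand) is a maternally expressed long noncoding RNA, and its first exon is the source of miR-675. Healthy livers had 104, 21 and 54 counts, or 6.54, 1.32 and 2.97 CPM. In untreated HCC the values were 12868, 10025 and 13795 counts, or 603, 449 and 515 CPM. H19 was 145-fold higher in untreated HCC, or 7.18 ± 0.387 on the log2 scale (error as standard error, edgeR adjusted p = 3.4e-08). Healthy replicate 1 had the most H19 of the healthy livers, and without it the log2 fold change was 7.89. H19 alone made up 42.6 to 59.0% of the counts of the 10 genes in untreated HCC, and 1.59 to 4.86% in healthy livers.

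Mature microRNAs were not measured in these libraries, and the Mir675 row held 0 counts in every liver. The 2 mature products of the H19 transcript are shown because H19 was the most abundant of the 10 transcripts in HCC, with their seeds (bases 2 to 8) in capitals, and the sequence of the delivered miR-22 is shown with them. All are RefSeq entries.
mmu-miR-675-5p: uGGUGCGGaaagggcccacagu
mmu-miR-675-3p: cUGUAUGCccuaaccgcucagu
mmu-miR-22-3p: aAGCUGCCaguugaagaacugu

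Of the 10 genes, 4 lie in the Dlk1 and Dio3 domain of chromosome 12, and these were all higher in untreated HCC. Dlk1 (chr12:109418749-109429262, plus strand) encodes a membrane protein with EGF-like repeats that is related to Notch ligands and marks hepatoblasts of the fetal liver. Healthy livers had 0, 0 and 1 counts, and untreated HCC livers had 26, 122 and 43 counts, or 1.22, 5.46 and 1.61 CPM. Dlk1 was at least 15.3-fold higher (edgeR adjusted p = 7.97e-05). That bound rests in part on untreated replicate 3, and without it Dlk1 was at least 7.81-fold higher.

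Meg3 (chr12:109506877-109538165, plus strand) is the long noncoding RNA that begins next to the control region of the domain, on the maternal copy. Its level was 1.38, 1.83 and 1.59 CPM in healthy livers and 176.0, 265.3 and 121.9 CPM in untreated HCC. The lowest HCC value was far above the highest healthy value. The log2 fold change was 6.87 ± 0.390, or 117-fold (edgeR adjusted p = 4.9e-08).

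Rian (chr12:109570242-109628150, plus strand), a noncoding RNA that carries a row of small nucleolar RNAs, followed Meg3. It was at 0.943, 1.70 and 1.48 CPM in healthy livers and at 164.3, 197.3 and 103.2 CPM in untreated HCC, a log2 fold change of 6.80 ± 0.321, or 112-fold (edgeR adjusted p = 1.35e-08). Rian is also known as a site where AAV vectors integrate in mouse liver, and both HCC groups received AAV8. Integration was not measured here, and a part of it in the level of Rian was not tested. Mirg (chr12:109696198-109715898, plus strand), the host of a microRNA cluster, had 1, 0 and 0 counts in healthy livers and 85, 179 and 107 counts in untreated HCC, or 3.98, 8.02 and 4.00 CPM. It was at least 29.5-fold higher (edgeR adjusted p = 1.76e-06).

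RefSeq places 2 microRNA genes in Meg3, 3 in Rian and 10 in Mirg, with 3, 6 and 19 mature products. The 19 products of Mirg have 18 different seeds. The only shared seed, GGUUGCC, belongs to the pair shown here with the products of Meg3 that lie in Mir770, with seeds again in capitals. The rows of all these microRNA genes held between 0 and 12 counts in any liver.
mmu-miR-770-5p: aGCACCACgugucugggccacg
mmu-miR-770-3p: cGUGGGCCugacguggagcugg
mmu-miR-453: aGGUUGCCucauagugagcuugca
mmu-miR-496a-5p: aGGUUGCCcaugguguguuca

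The other 4 genes lie alone or in other clusters and changed less. Grb10 (chr11:11880498-11988683, minus strand) encodes an adaptor that binds the insulin and IGF1 receptors and dampens their signal. Its values were tight within each group, at 7.04, 6.80 and 6.92 CPM in healthy livers and 30.2, 29.2 and 29.0 CPM in untreated HCC. The log2 fold change was 2.09 ± 0.136, or 4.26-fold (edgeR adjusted p = 1.24e-07). Plagl1 (chr10:12936248-13007438, plus strand), a zinc-finger transcription factor that binds other imprinted genes, was at 1.38, 1.39 and 1.15 CPM in healthy livers and at 2.91, 2.91 and 2.58 CPM in untreated HCC. The difference was 2.14-fold (log2 1.10 ± 0.286, edgeR adjusted p = 0.00563), on 21 to 22 counts per healthy liver and 62 to 69 per untreated HCC liver.

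Peg3 (chr7:6706882-6733468, minus strand), a large zinc-finger protein, and Cdkn1c (chr7:143012069-143014806, minus strand), an inhibitor of cyclin-dependent kinases, did not pass the test. Peg3 was at 113.2, 66.0 and 60.1 CPM in healthy livers and at 58.5, 86.5 and 85.4 CPM in untreated HCC, so the groups overlapped (log2 fold change -0.05 ± 0.219, edgeR adjusted p = 0.855). The sign of that difference rested on single livers: it was 0.27 without healthy replicate 1 and 0.11 without untreated replicate 2. Cdkn1c was at 3.90, 3.97 and 4.29 CPM in healthy livers and at 3.00, 2.91 and 3.74 CPM in untreated HCC. The Cdkn1c values did not overlap, but the log2 fold change of -0.33 ± 0.204 had an edgeR adjusted p of 0.187.

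**Figure D2:**
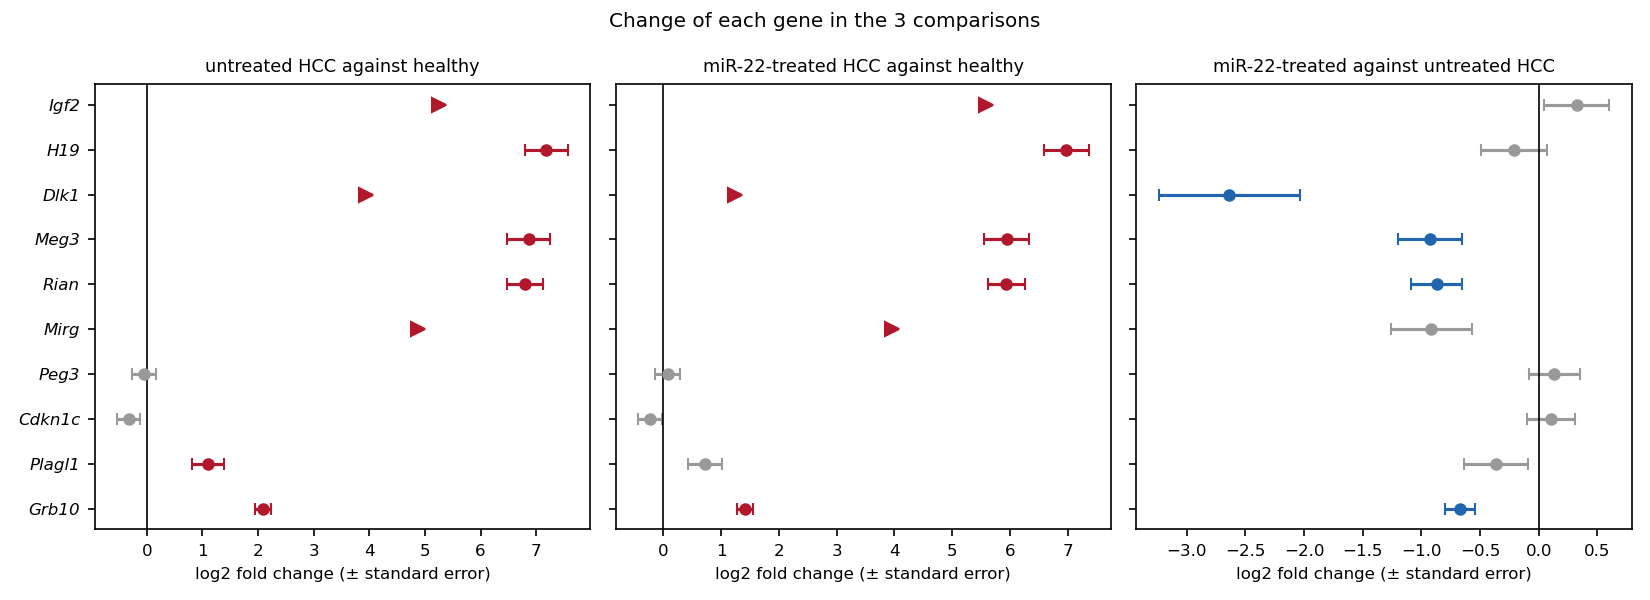
Log2 fold change of each gene in the 3 comparisons; circles with bars are fitted values ± standard error, right-pointing triangles are lower bounds for genes with at most 3 counts in every healthy liver, red marks genes called higher, blue genes called lower and grey genes not called. Against healthy liver the 6 genes of the Igf2 and Dlk1 domains stand to the right in both HCC groups, and against untreated HCC Dlk1, Meg3, Rian and Grb10 stand to the left.

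Levels were set side by side between genes as CPM per kilobase of merged exons (GENCODE annotation of GRCm39). These exon lengths come from a different GENCODE release than the counts, and the order depends on the length used: Rian was divided by 31981 merged bases, and its longest annotated transcript has 8080. In healthy livers Peg3 led with 5.84 ± 2.13 (SD, n = 3), ahead of Cdkn1c with 1.88 ± 0.0958, H19 with 1.27 ± 0.936 and Grb10 with 0.675 ± 0.0115. The intervals of Cdkn1c and H19, and of H19 and Grb10, overlapped. Plagl1 at 0.153, Meg3 at 0.0829 and Rian at 0.0430 followed, with Igf2, Dlk1 and Mirg at the floor. In untreated HCC the order began with H19 at 183 ± 27.1, far above Meg3 at 9.72 ± 3.75, Peg3 at 5.62 ± 1.16 and Rian at 4.84 ± 1.49. Meg3 and Peg3 overlapped within their SD, as did Peg3 and Rian. Grb10 at 2.88 ± 0.0599, Cdkn1c at 1.49 ± 0.210 and Igf2 at 1.12 ± 0.150 came next without overlap. Mirg at 0.552 ± 0.241, Dlk1 at 0.458 ± 0.389 and Plagl1 at 0.327 ± 0.0223 closed the order and overlapped with one another.

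The miR-22-treated HCC livers were compared with untreated HCC, which received the empty virus, to ask how the livers differed. The authors report a smaller tumor load after miR-22. The share of tumor in the liver and the level per cell thus cannot be told apart here. Of the 10 genes, 4 were lower after miR-22 and 0 were higher, where 5.47% of all tested genes were called lower and 8.32% higher. Dlk1, Meg3, Rian and Grb10 were the 4. No gene of the 10 was higher at an unadjusted p under 0.05, and DESeq2's Wald test also called 4 lower and 0 higher, with Mirg in place of Meg3. The median log2 fold change of the 10 was -0.52, beside 0.00 for all tested genes.

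Dlk1 had the largest change of the 10. It fell from 26, 122 and 43 counts in untreated HCC to 7, 5 and 12 counts after miR-22, or 0.400, 0.319 and 0.571 CPM. The groups did not overlap, and the log2 fold change was -2.64 ± 0.602, or 6.22-fold lower (edgeR adjusted p = 0.00789). Dlk1 passed the filter on low counts only through the untreated HCC livers, so this direction too was set by being testable. Without untreated replicate 3, which had the most Dlk1, the log2 fold change was -1.69 and the adjusted p 0.0493.

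Meg3 was at 90.2, 66.0 and 139.5 CPM after miR-22, against 176.0, 265.3 and 121.9 CPM without it, and the highest treated liver lay above the lowest untreated one. The log2 fold change was -0.93 ± 0.270, or 1.90-fold lower (edgeR adjusted p = 0.0261). That call was lost with DESeq2's Wald test (adjusted p = 0.0517) and with only the 2 HCC groups in the fit (0.0567). It was also lost without untreated replicate 2 (0.0567) or replicate 3 (0.136), and without treated replicate 2 (0.0780) or replicate 3 (0.107).

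For Rian, the values after miR-22 were 81.3, 65.3 and 107.6 CPM, and only the highest of them lay above the lowest untreated value of 103.2 CPM. The log2 fold change was -0.87 ± 0.218, or 1.82-fold lower (edgeR adjusted p = 0.0129). Without untreated replicate 3 the adjusted p was 0.0682, and without treated replicate 3 it was 0.0630. Mirg was at 3.89, 1.98 and 2.57 CPM, below the 3 untreated values of 3.98, 8.02 and 4.00 CPM. Its log2 fold change of -0.92 ± 0.346 was of the size of those of Meg3 and Rian but did not pass the test (edgeR adjusted p = 0.0740). Mirg was called by DESeq2's Wald test (adjusted p = 0.0472), with no filter on low counts (0.0111) and without treated replicate 2 (0.0488).

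Grb10 had the smallest standard error of the 10. It was at 17.1, 15.9 and 22.5 CPM after miR-22 against 30.2, 29.2 and 29.0 CPM, with no overlap. The log2 fold change was -0.67 ± 0.125, or 1.59-fold lower (edgeR adjusted p = 0.00277). Without treated replicate 3 the change was -0.57 on the log2 scale (edgeR adjusted p = 0.0149), just under the 1.5-fold limit.

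Igf2 and H19 did not pass this test. Igf2 was at 13.1, 6.57 and 6.33 CPM after miR-22 and H19 at 516, 382 and 459.5 CPM, and both ranges overlapped those of untreated HCC. Their log2 fold changes were 0.32 ± 0.281 (edgeR adjusted p = 0.454) and -0.21 ± 0.280 (edgeR adjusted p = 0.639). Treated replicate 2 set the sign for Igf2, which was -0.11 without it. Plagl1 (-0.36 ± 0.270), Peg3 (0.13 ± 0.218) and Cdkn1c (0.10 ± 0.205) did not pass either, and the Peg3 value was -0.030 without untreated replicate 2.

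The miR-22-treated livers were then set against healthy livers, to see what remained different. Of the 10 genes, 7 were higher and 0 lower, beside 16.9% of all tested genes called higher and 7.05% called lower. None was lower at an unadjusted p under 0.05 or by DESeq2's Wald test. H19 was 126-fold higher than in healthy liver, Meg3 61.4-fold, Rian 61.2-fold and Grb10 2.68-fold, and Igf2 was at least 47.9-fold and Mirg at least 15.5-fold higher. Without healthy replicate 1, the log2 fold change of H19 was 7.68 in place of 6.97. Dlk1 was at least 2.38-fold higher (edgeR adjusted p = 0.0239). Without treated replicate 4 that bound was 1.99-fold. The Dlk1 call was lost without healthy replicate 1 (edgeR adjusted p = 0.0688), healthy replicate 2 (0.0717) or treated replicate 4 (0.0636).

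Plagl1 did not pass against healthy liver after miR-22, at 1.66, 1.85 and 2.95 CPM (log2 fold change 0.73 ± 0.294, edgeR adjusted p = 0.0697). It passed without treated replicate 2 (edgeR adjusted p = 0.0486) and when at least 10 counts in every library were asked for (0.0475). This comparison shares its livers with the other two, so the 3 are not independent. Per kilobase, H19 stayed first after miR-22 at 159 ± 23.7 CPM (SD, n = 3), Peg3 was at 6.16 ± 0.932, Meg3 at 5.10 ± 1.94 and Rian at 2.65 ± 0.667, with overlap between Peg3 and Meg3 and between Meg3 and Rian. Rian also overlapped with Grb10. Grb10 at 1.80 ± 0.341, Cdkn1c at 1.61 ± 0.193 and Igf2 at 1.41 ± 0.623 overlapped in a row. Mirg was at 0.291 ± 0.101 and Plagl1 at 0.252 ± 0.0814, also with overlap, and Dlk1 came last at 0.0713 ± 0.0213.

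Ratios within a liver show which genes kept step, and they are given with no test. Rian had 0.682 to 0.931 counts for each Meg3 count in healthy livers. That ratio was 0.744 to 0.933 in untreated HCC, and it was 0.771 to 0.989 after miR-22. These ranges overlapped although both levels differed over 100-fold between healthy liver and untreated HCC. The healthy ratios rest on 15 to 27 Rian and 22 to 29 Meg3 counts a liver, too few to show a modest shift. Dlk1 had 0.692, 2.06 and 1.32 counts per 100 Meg3 counts in untreated HCC and 0.444, 0.483 and 0.409 after miR-22, and these ranges did not overlap. For Igf2 there were 1.31, 1.36 and 1.31 counts per 100 H19 counts in untreated HCC and 2.54, 1.72 and 1.38 after miR-22. Meg3 had 0.292, 0.591 and 0.237 counts per H19 count in untreated HCC. Untreated replicate 3 was thus the liver with the most Dlk1, Meg3, Rian and Mirg and at the same time the least Igf2 and H19 of its group.

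**Figure D3:**
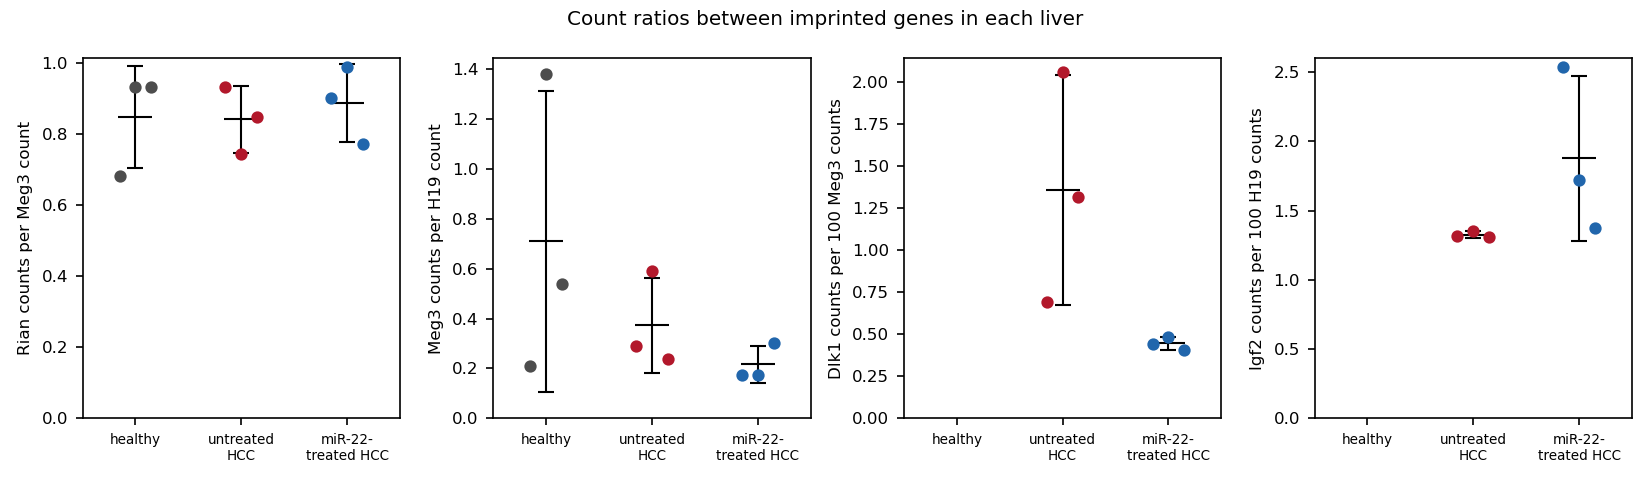
Ratio of the counts of gene pairs in each liver, with the mean ± SD of 3 livers in black; the healthy group is left out of the last 2 panels because Dlk1 and Igf2 had at most 1 count there. The Rian to Meg3 ratio overlaps across the 3 groups, and the Dlk1 to Meg3 ratio of every miR-22-treated liver lies below those of untreated HCC.

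The genes around the Dlk1 and Dio3 domain were read from the same fit. The domain holds 98 annotated genes of the count table, of which 34 had any count and 6 could be tested. Of the 6, 5 were higher in untreated HCC, beside 22.7% of all tested genes: Dlk1, Meg3, Rian, Mirg and the uncharacterized Gm37899, which had 0 counts in healthy livers and 23, 36 and 21 counts in untreated HCC (at least 6.40-fold higher, edgeR adjusted p = 7.72e-05). Dlk1, Mirg and Gm37899 passed the filter only through the HCC livers, so their direction was set by being testable. Counts of other genes of the domain lay below the filter, and their patterns differed. Gm40576 had 0, 5 and 3 counts in healthy livers and 0, 1 and 0 in untreated HCC. Rtl1, a retrotransposon-derived gene of the paternal copy that lies opposite to Rian transcripts, had 0 counts in the 3 healthy livers, 6, 33 and 11 counts in untreated HCC and 9, 6 and 3 counts after miR-22. B830012L14Rik had 0 counts in each healthy liver and 15, 32 and 12 counts in untreated HCC, and the small nucleolar RNA Gm24564 had 0 and then 11, 11 and 8 counts.

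Dio3os, a noncoding RNA at the far end of the domain, 738 kb from the start of Meg3, moved the other way. It had 21, 13 and 13 counts in healthy livers, 8, 7 and 5 in untreated HCC and 14, 27 and 58 after miR-22. It fell by 1.70 on the log2 scale in untreated HCC (edgeR adjusted p = 0.0187) and was higher by 2.60 after miR-22 than without it (edgeR adjusted p = 0.00396). The first of these calls was lost without healthy replicate 1 or untreated replicate 4, with adjusted p up to 0.0749. Dio3, the deiodinase gene that inactivates thyroid hormone, had between 0 and 6 counts in any liver and was not tested. After miR-22, Gm37899 had 6, 4 and 6 counts, a log2 fold change of -1.94 (edgeR adjusted p = 0.0169). That call was lost without untreated replicate 2, untreated replicate 3 or treated replicate 3 (adjusted p up to 0.0883). Gm37899 passed the filter only through the untreated HCC livers, so this direction too was set by being testable.

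Outside the domain, within 500 kb of either end, 8 genes could be tested and 0 of the 8 were called in untreated HCC or after miR-22. Over all tested genes 22.7% were higher and 18.1% lower in untreated HCC, and 8.32% and 5.47% after miR-22. By unadjusted p under 0.05, 3 of the 8 differed in untreated HCC and 0 after miR-22, and DESeq2's Wald test called 0 in both comparisons. Ppp2r5c (log2 0.25, edgeR adjusted p = 0.0183) and Dync1h1 (log2 0.24, edgeR adjusted p = 0.0344) passed edgeR's quasi-likelihood test but changed by less than 1.5-fold. Gm19605, the other of the 3, had the largest change of the flanks, at -0.78 on the log2 scale in untreated HCC, and did not pass after adjustment (edgeR adjusted p = 0.0534). Around Igf2 and H19, 4 of 12 tested genes within 500 kb were higher and 1 lower in untreated HCC, beside 22.7% and 18.1% of all tested genes. One of the 4, Kcnq1, was called in 5 of 9 fits with 1 liver left out. Dusp8 and Trpm5, also among the 4, passed the filter only through HCC livers, with at most 15 and 7 counts in a healthy liver. Dusp8, a phosphatase of MAP kinases, had the largest rise of the 12 (log2 fold change 5.09, edgeR adjusted p = 1.45e-07). Mrpl23, a mitochondrial ribosomal protein gene and the tested gene nearest to H19, was lower by 0.67 on the log2 scale (edgeR adjusted p = 0.000324). After miR-22 only Dusp8 of the 12 was called, lower by 0.83 on the log2 scale, a call lost in 5 of the 9 fits that left out 1 liver.

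**Figure D4:**
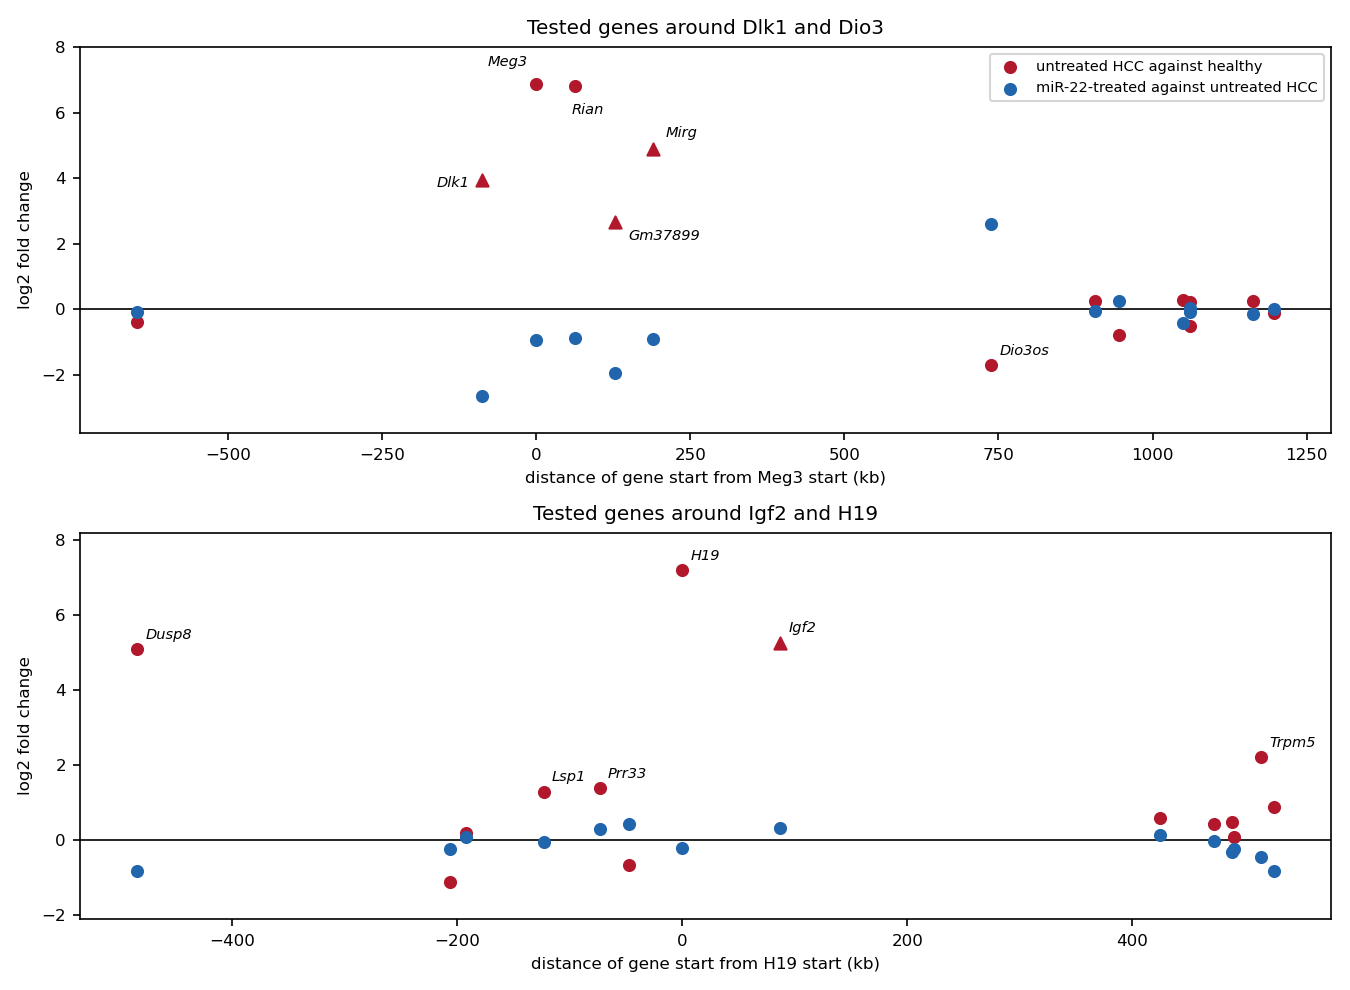
Log2 fold change of every tested gene in and around the Dlk1 and Dio3 domain and the Igf2 and H19 pair, against the distance in kb of its start from the start of Meg3 or H19; red is untreated HCC against healthy liver, blue miR-22-treated against untreated HCC, and triangles are lower bounds. In the upper panel 5 genes of the domain stand high, the 8 flanking genes lie between -0.78 and 0.30 in red, and Dio3os stands below 0 in red and above 0 in blue.

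The wider set of imprinted genes was read from a list of 59 that leaves out the 10. The table held 57, and 41 could be tested: 13 were higher and 4 lower in untreated HCC, with a median log2 fold change of 0.23. Over all tested genes 22.7% were higher and 18.1% lower, with a median of 0.01. Of the 13, 6 passed the filter only through HCC livers (Atp10a, Peg10, Phlda2, Rasgrf1, Sfmbt2 and Zim1). Igf2r, the maternally expressed receptor that clears IGF2, was at 74.9 CPM in healthy livers and 156 CPM in untreated HCC (log2 1.06, edgeR adjusted p = 9.73e-07), and its antisense transcript Airn was higher by 2.45 on the log2 scale (edgeR adjusted p = 3.04e-06). Airn starts within Igf2r on the opposite strand, so reads from shared stretches cannot be told apart without strand. Atp10a, a lipid flippase gene, was higher by 4.20, and Phlda2, which limits placental growth, was at least 13.7-fold higher. Slc38a4, an amino acid transporter gene of hepatocytes, was lower by 1.67 on the log2 scale, from 1179 to 371 CPM. The number called ranged from 11 to 15 higher and from 2 to 4 lower when each liver was left out in turn, with 2 lower without untreated replicate 3.

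After miR-22, 5 of the 41 were lower and 2 higher than in untreated HCC, beside 5.47% lower and 8.32% higher over all tested genes. DESeq2's Wald test called 7 lower and 2 higher. Igf2r (-0.65), Airn (-1.18), Atp10a (-1.12), Phlda2 (-1.10) and Peg10 (-0.86) were lower, and Slc38a4 (1.42) and Dcn (0.71) higher, all as log2 fold changes. With each liver left out, 2 to 8 were lower and 1 to 3 higher, with 2 lower without treated replicate 3, and the calls of Igf2r and Airn held in all 9 fits that left out 1 liver. The Atp10a call held in 7 and the Phlda2 call in 5 of the 9. The Peg10 call (edgeR adjusted p = 0.0492) held in only 1 of the 9.

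**Figure D5:**
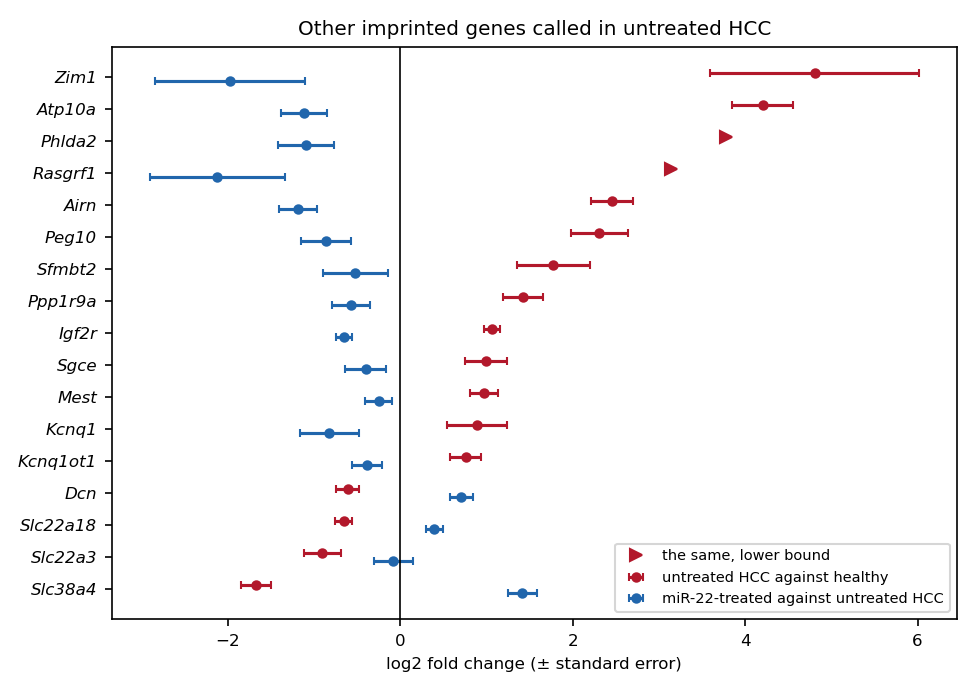
Log2 fold change ± standard error of the 17 other imprinted genes that were called in untreated HCC; red is untreated HCC against healthy liver, red triangles are lower bounds, and blue is miR-22-treated against untreated HCC. In red 13 genes lie to the right of 0 and 4 to the left, and both comparisons share the untreated HCC livers.

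The IGF axis, made up of ligands, receptors, binding proteins and adaptors, was read from a list of 20 genes with 19 tested. In untreated HCC 4 were higher (Igf2r, Grb14, Igfbp3 and Igfbp7) and 9 lower, beside 22.7% and 18.1% of all tested genes, and the median log2 fold change was -0.69. The ligand Igf1, which hepatocytes secrete in response to growth hormone, was at 1265 CPM in healthy livers, 332 CPM in untreated HCC and 843 CPM after miR-22, and Igfals, its carrier subunit in blood, was at 231, 37.1 and 105 CPM. Log2 fold changes in untreated HCC were -1.93 for Igf1, -2.63 for Igfals, -1.88 for the growth hormone receptor Ghr and -2.44 for the adaptor Irs2. Grb7, a relative of Grb10, was lower by 1.48 where Grb10 was higher by 2.09. After miR-22, 7 of the 19 were higher than in untreated HCC (8.32% of all tested genes), among them Igf1 (1.35), Igfals (1.49), Ghr (1.10), Irs2 (1.75) and Grb7 (0.85), and 1, Igf2r, was lower.

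Factors that bind IGF2 mRNA or belong to the LIN28 and let-7 axis were few: 8 of 11 were tested, with Igf2bp2 (log2 1.67, edgeR adjusted p = 0.000285) and Arid3a (log2 0.83, edgeR adjusted p = 0.0485) higher and Tut4 lower by 0.80 in untreated HCC. The Arid3a call held in 3 of 9 fits with 1 liver left out. After miR-22, 0 of the 8 were called by edgeR's quasi-likelihood test, 4 had an unadjusted p under 0.05 (2 in each direction), and DESeq2's Wald test called 1 lower. Of 24 genes that set or keep imprints and DNA methylation, 22 were tested, and 5 were higher and 1 lower in untreated HCC, shares no higher than those over all tested genes (22.7% and 18.1%). Zfp57 and Tet1 passed the filter only through HCC livers. Zfp57, a zinc-finger protein that guards methylation at imprinting control regions, was at 0.668 CPM in healthy livers and at 5.39 CPM after miR-22, and was higher in untreated HCC than in healthy liver (log2 4.00, edgeR adjusted p = 6.9e-07). Uhrf1 (3.37) and Dnmt1 (1.17), which copy methylation at replication, Tet1 (3.26) and Ezh2 (0.95) were the other four, and Ctcfl, a paralog of CTCF, was lower (-1.10). The Ctcfl call was lost without healthy replicate 2, untreated replicate 2 or untreated replicate 3 (edgeR adjusted p up to 0.0920). After miR-22 Zfp57 (-1.01) and Tet1 (-1.39) were lower and Ctcfl (1.79) higher. The Zfp57 call was lost without treated replicate 3 (edgeR adjusted p = 0.0572), and the Tet1 call without untreated replicate 3 (0.0563).

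Further lists set Cdkn1c and the fetal genes in context. Among 6 other CDK inhibitors, 4 were higher in untreated HCC (22.7% of all tested genes), and Cdkn1c was not called. Cdkn1a, a p53 target, was at 1.34 CPM in healthy livers and 101 CPM in untreated HCC, and Cdkn2b, Cdkn2a and Cdkn2c were higher by 6.49, 5.04 and 0.95 on the log2 scale. Cdkn2a and Cdkn2b passed the filter only through HCC livers. Of 7 genes on a list of fetal liver genes and their repressors, Afp (6.65), Gpc3 (6.55) and Cd24a (5.15) were higher in untreated HCC (22.7% of all tested genes), with Gpc3 testable only through HCC livers. Zhx2 and Zbtb20, repressors of Afp and H19 or of Afp in adult liver, were not called. After miR-22, 3 of the CDK inhibitors and 3 of the fetal liver list were lower, beside 5.47% of all tested genes. Without untreated replicate 2, as few as 1 of the 3 fetal liver genes was called lower.

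The gene with the most similar profile over the 9 livers was sought for each of the 10, by the root mean square difference of centered log2 CPM. Meg3 and Rian were nearest to each other among all tested genes, at 0.164. After Meg3, the gene nearest to Rian was Afp, the fetal serum protein (0.231). Mirg was nearest to Hepacam (0.254), Dlk1 to Ier3 (0.421), Igf2 to Apela (0.386) and H19 to Akr1c18 (0.493). Plagl1 and Grb10 were nearest to Pidd1 (0.111) and Tmem43 (0.101), and Peg3 and Cdkn1c to Tnfrsf4 (0.0861) and Plcl2 (0.0674). All 9 livers share the 3 groups, so these are descriptions with no test.

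Matches to the seed of miR-22-3p were counted in the longest annotated transcript of each gene, as the letters GGCAGCT. Rian, Mirg and Plagl1 had 2 each and Grb10 had 1. The other six, among them Dlk1 and Meg3, had 0. Of the longest transcripts of 15635 tested genes, 42.4% held at least 1 match.

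Motifs of 3 factors were searched on both strands in RefSeq promoters (250 bases before to 50 bases after a gene's start, GRCm38.p6), which were at hand for 8 of the 10 genes with 13 promoters. H19 and Cdkn1c were not among them. The PLAGL1 motif GGGGCCCC is in 1.08% of 32851 promoters, a core motif of CTCF in 0.122% and the ZFP57 motif TGCCGC in 11.6%, and the last can overlap the CTCF motif. The ZFP57 letters were found once in 1 promoter each of Igf2, Meg3, Plagl1 and Grb10, the PLAGL1 letters once in the Peg3 promoter and the CTCF motif in none. The sites in the Meg3 and Peg3 promoters are shown because Meg3 rose over 100-fold in untreated HCC and Peg3 did not pass the test, with the motif in capitals on the strand of the gene. The Meg3 site lies at chr12:109540794-109540823 (plus strand) and the Peg3 site at chr7:6730602-6730631 (minus strand).
Meg3, ZFP57 letters: gccaggggcactGCGGCAgatttttttttc
Peg3, PLAGL1 letters: gactctgcttgGGGGCCCCtaacactgact

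Markers of the cell types of the liver moved with the groups as well. Their counts stand beside 22.7% of all tested genes called higher and 18.1% called lower in untreated HCC. All 8 tested hepatocyte markers were lower in untreated HCC, and their summed level was 130569 to 137942 CPM in healthy livers. In untreated HCC it was 53986 to 66920 CPM, and after miR-22 it was 80923 to 99919 CPM. Of 7 tested ductal and progenitor markers 6 were higher in untreated HCC, with Krt7 testable only through HCC livers and Sox9, Spp1 and Epcam lower again after miR-22, and the sum of the list was 119 to 128, 3569 to 6505 and 1742 to 2886 CPM in the same order. Most of that sum was Spp1, whose mean was 4620 CPM in untreated HCC and 2017 CPM after miR-22. Of 11 stellate cell and fibroblast markers 6 were higher and 2 lower in untreated HCC, with sums of 391 to 465, 1055 to 1224 and 836 to 982 CPM. All 4 tested neutrophil markers were higher, 3 of them (Cxcr2, S100a8 and S100a9) testable only through HCC livers, at sums of 1.76 to 4.53, 17.5 to 22.9 and 16.8 to 25.3 CPM, and the defining marker Ly6g was at 0 in healthy livers and untreated HCC. Of 10 endothelial markers 4 were lower, and of 8 macrophage and of 8 lymphocyte markers 1 was higher and 1 lower. The part of these shifts in the changes of the 10 imprinted genes was not tested.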

How the data were processed

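Bulk RNA-seq of 9 whole livers was used. According to the labels and methods, the authors made libraries with a non-directional kit, checked reads with FastQC 0.11.7, quantified transcripts of GRCm39 with Salmon and summed them to genes. The values used are the raw counts per gene that the authors deposited, as whole numbers. Their second table of the same counts divided by size factors was not used. Gene-level estimates can split reads between overlapping genes. Groups came from the sample titles and treatment labels. edgeR 4.0.16 (R 4.3.3) was run on all 9 libraries, with filterByExpr, TMM factors, 1 mean per group, no covariate and the quasi-likelihood test, adjusted by Benjamini-Hochberg over 15717 genes. The fit was tested on simulated counts. Replicates of a group differed by more than counting noise (chi-square per degree of freedom 6.13 to 28.4). The TMM factor of a healthy liver was 0.865 to 0.872, that of an untreated HCC liver 1.12 to 1.22, and 0.942 to 1.03 after miR-22. CPM divides counts by the scaled library size, and 3 counts was the floor per library. A lower bound is the mean CPM of the HCC group divided by that floor in healthy livers. It takes in neither the counting error nor the replicate spread of the HCC livers.

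Alternatives were DESeq2 1.42.0, its size factors, upper-quartile factors, no filter, at least 10 counts in every library, only the compared groups, the replicate number as a block, each liver left out, and no limit on fold. The 10 genes, all gene lists and the tests were chosen with earlier results of these data known. Genes named are the 10, up to 3 called genes with the smallest p per list and comparison (every gene of lists under 8) and the nearest profiles. The genes of both neighborhoods and Phlda2, Peg10, Dcn, Ghr, Irs2, Grb14, Igfbp3, Igfbp7, Ezh2 and Ly6g were picked after their values were seen. No column of values was left unmapped (0 of them). Positions are 1-based on GRCm39, and those of RefSeq sequences on GRCm38.p6.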

Additional observations from a re-analysis of the deposited data

How the results depend on the processing

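Of the log2 fold changes of the 10 genes under the alternatives, 154 of 157 kept their direction and call for untreated HCC against healthy liver, 141 of 157 for miR-22-treated against untreated HCC and 148 of 156 for miR-22-treated HCC against healthy liver. With at least 10 counts in every library, 5 genes were higher in untreated HCC, because Igf2, Dlk1 and Mirg were no longer tested. The number lower after miR-22 ranged from 1 to 4 when each liver was left out, with 1 (Dlk1) without treated replicate 3 and 2 without untreated replicate 3. Peg3, called in no fit, changed sign: against healthy liver it ranged from -0.23 to 0.27 in untreated HCC and from -0.10 to 0.40 after miR-22, and from -0.030 to 0.23 between the HCC groups. Igf2 ranged from -0.11 to 0.51 between the HCC groups.

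The HCC groups share replicate numbers 2, 3 and 4, but same-numbered livers did not deviate together (correlations of -0.12, -0.13 and -0.24), so the numbers were not taken as pairs. With the replicate block, 2 genes (Dlk1 and Grb10) were called lower after miR-22, and Peg3 in untreated HCC was 0.18. The block moved the genes called after miR-22 from 2167 to 1745. Over all genes, 1433 were called after miR-22 without treated replicate 3 and 1496 without untreated replicate 3, of which 415 and 481 were lower, against 859, and 565 were lower without untreated replicate 2. The cause of these shifts was not tested. Depth limits Dlk1, Mirg and Igf2 in healthy liver, where 3 counts is the floor, and Dlk1 after miR-22, which rests on 5 to 12 counts a liver.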
